A study of Rattus norvegicus with 4 samples.

Results

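The genes of oxidative phosphorylation (OXPHOS) described here encode nuclear subunits of the respiratory chain and ATP synthase, 3 assembly factors of complex I and the inhibitor of ATP synthase. They were taken by name from a rat array: genes starting with Nduf, Uqcr, Cox4 to Cox8 or Atp5, together with Sdha to Sdhd, Cycs and Cyc1. The name came from the RefSeq accession of the probe, and a member had to be well above background on at least 1 of 4 arrays. Of 53 such genes on the array, 50 passed, of 22352 features (named genes, or single probes with no gene name) that passed in the whole series. Ndufs4, Cox8b and Cox8c were below background on every array, and Cyc1, Ndufa4, Ndufa4l2, Cox7a1 and Sdhb were not analysed here. Given the naming rule, the values entered the choice of members only through this background filter, which Uqcrq and Cox6b2 passed through the treated arrays alone. The rule itself was chosen with earlier results of these data known.

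The arrays measured RNA of NRK-52E, an established line of rat kidney tubule epithelial cells. Confluent cells were given 0% (control), 0.003, 0.006 or 0.009% hydrogen peroxide (H2O2) for 1 h, washed, and left for 12 h without serum, a serum-free interval that the control shared. With 1 culture and 1 array for each dose, replicates are lacking and a single dose could not be tested against the control. The series asks which molecules from dying tubule cells make the cells around them divide. The 4 arrays shared 1 slide and followed the dose along it, so that an effect of position on the slide and an effect of dose cannot be told apart.

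Oxidative phosphorylation passes electrons through the inner mitochondrial membrane and uses the proton gradient this builds to make ATP. Complex I takes electrons from NADH and complex II from succinate, ubiquinone carries both to complex III, cytochrome c carries them on to complex IV, which reduces oxygen, and ATP synthase (complex V) lets the protons back in. Kidney tubule cells depend heavily on this pathway for salt transport, and complexes I and III are known sources of reactive oxygen inside the cell. The subunits encoded in mitochondrial DNA fall outside the naming rule.

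Each array held 43379 noncontrol spots, none of them saturated, and the signal of 51.8 to 54.9% of the probes was well above background. All levels are log2 of the spot signal divided by the array's 75th percentile, which was 180, 168, 158 and 121 in the control and at 0.003, 0.006 and 0.009%. A difference is the level at a dose minus the level in the control. Scaling to spike-in spots in place of the 75th percentile lowers every difference by 0.19, 0.54 and 1.17 at the 3 doses, and array median scaling by 0.15, 0.31 and 0.56, so small positive differences change sign between scalings. Quantile normalization and, as another background correction, normexp were also run. As array median and spike-in scaling shift every difference down, a negative one cannot turn under them, and only quantile normalization and normexp can change its sign. Neither did so for any of the members below the control with the 75th percentile, 27 at 0.003%, 22 at 0.006% and 16 at 0.009%. Of the members above it, those above in all 5 settings were Ndufaf4, Cycs, Cox6b2, Ndufa5, Cox5a, Cox7a2, Uqcrh, Atp5f1b, Atp5mc1 and Atp5pb at 0.003%, Ndufaf4, Cycs, Uqcrq and Cox6b2 at 0.006%, and Ndufaf4, Uqcrq and Cox6b2 at 0.009%, where for Uqcrq and Cox6b2 the background filter fixes the direction. Every other positive difference became 0 or negative in at least 1 setting. The spot error of a difference, from the scanner software, had a median of 0.20 for the members, and covers the reading of a spot, not the spread between cultures. Of 9 epithelial markers on the array, 5 were well above background on each array, while Epcam and Pax8 were among those below it on all 4. Their summed scaled signals were 60.2 in the control and 56.7, 45.1 and 39 at the 3 doses. Of 8 proximal tubule markers, 6 were well above background on each array, with sums of 5.05 in the control and 2.83, 3.18 and 3.87 at the 3 doses. The fibroblast markers Col1a2, Col3a1 and Pdgfrb were above background on all arrays with summed scaled signals of 32 in the control and 9.2, 13.2 and 19.6 at the 3 doses, and Dcn was below it. Of 5 macrophage markers on the array, Adgre1, Cd68, Csf1r and Cd14 were well above background on at least 1 array and Itgam on none, with summed scaled signals of 42.1 in the control and 27.2, 22.4 and 23.4 at the 3 doses. Of 2 endothelial markers, Kdr was above background on each array and Pecam1 on none, with sums of 0.107 in the control and 0.202, 0.246 and 0.322 at the 3 doses. The part of these markers in the results was not tested, and in a bulk sample fewer cells of a type and less RNA per cell cannot be told apart.

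With 75th percentile scaling, most OXPHOS genes were within 1.5-fold of the control at each dose, and a few lay far from it. This depends on the scaling at the higher doses, since spike-in scaling put 22 and 45 of the 50 at least 1.5-fold lower at 0.006 and 0.009%, and array median scaling 12 and 16. The median of all features was then -0.47 and -1.01 with spike-in scaling and -0.24 and -0.40 with array median scaling. The complex I assembly factor gene Ndufaf4 was about 6-fold above the control at the lowest dose and the cytochrome c gene Cycs 2.4-fold, whereas genes of the electron entry points, the NADH-oxidising end of complex I and the succinate-oxidising subunit of complex II, were up to 1.84-fold lower. Over the 50 members the median difference was -0.04, 0.03 and 0.22 at 0.003, 0.006 and 0.009%, against 0.03, 0.07 and 0.16 over all features. Without Uqcrq and Cox6b2 it was -0.05, 0.03 and 0.21. Quantile normalization put the members' median at -0.06, array median scaling at -0.34 and spike-in scaling at -0.96 at 0.009%, opposite in sign to the 0.22 given by the 75th percentile, and normexp put it at 0.01.

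The members lay close together. The interquartile range of the differences was 0.50, 0.46 and 0.48 wide at the 3 doses, against 1.19, 1.13 and 1.12 for all features. The contrast was smaller with normexp, at 0.49, 0.44 and 0.45 against 0.64, 0.65 and 0.72. Bright probes can vary less than dim ones, and 43 of the 50 members belonged to the 5588 brightest features, whose range was 1.11, 1.03 and 0.88 wide (a comparison chosen after the values were seen). At 0.003%, 3 members (6%) were at least 1.5-fold higher, against 26.1% of all features, and 7 (14%) at least 1.5-fold lower, against 24.7%. At 0.006% these were 4 higher, against 27% of all features, and 4 lower, against 21.5%. At 0.009% they were 6 higher, against 31.4%, and 3 lower, against 17.3%. Of the higher members 1, 2 and 2 were bounds at the 3 doses, Cox6b2 at each dose and Uqcrq at 0.006 and 0.009%. For these the background filter fixes the direction. Quantile, array median and spike-in scaling and normexp each gave 3 higher at 0.009%, and they gave 4, 16, 45 and 4 lower. The median of all features there was -0.04, -0.40, -1.01 and 0.22 in the same order. The share of all features at this size is not given for these settings, so these counts do not set the members apart.

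At the stricter size of 2-fold, 2, 4 and 3 members were higher at the 3 doses, against 14.9, 14.9 and 16.5% of all features. Of these, Uqcrq and Cox6b2 at 0.006 and 0.009% are bounds and passed the background filter through the treated arrays alone, and without them the counts were 2, 2 and 1. No member was 2-fold lower at any dose, where 13.6, 10.5 and 7.4% of all features were, although spike-in scaling gave 1, 6 and 23 such members. With spike-in scaling the median of all features was -0.16, -0.47 and -1.01, the last itself 2-fold lower.

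**Figure D1:**
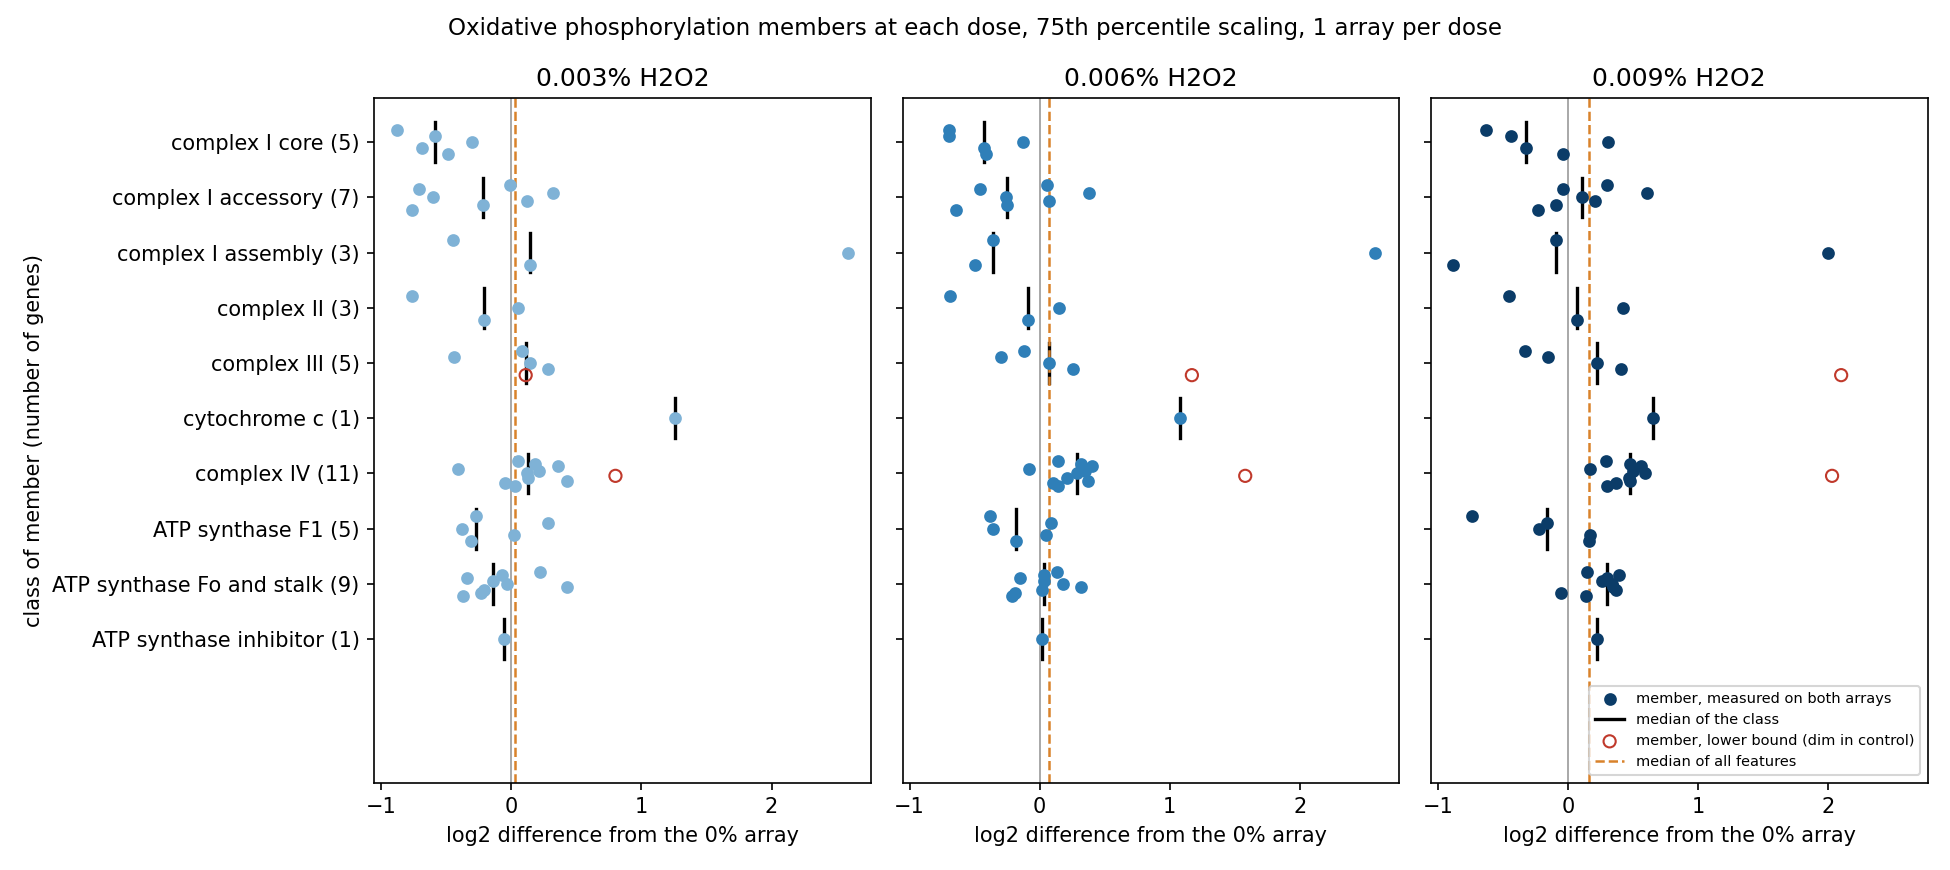
Log2 difference of each of the 50 members from the control array (x axis) by class (y axis) at 0.003, 0.006 and 0.009% H2O2. Filled points are members measured on both arrays, open red circles are lower bounds, black bars are class medians and the dashed line is the median of all features (0.03, 0.07 and 0.16). Ndufaf4 (2.59, 2.58 and 2.0) and Cycs (1.26, 1.08 and 0.65) stand to the right, and the core subunits of complex I lie below 0 at the first 2 doses. The sign of Cycs at 0.009% turns with spike-in scaling.

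Ndufaf4 encodes an assembly factor that works with Ndufaf3 on the part of complex I that docks ubiquinone. Its level was 1.23 in the control and 3.82, 3.81 and 3.23 at 0.003, 0.006 and 0.009%. All 3 treated arrays were thus well above the control, the highest dose least so, with differences of 2.59 ± 0.20, 2.58 ± 0.20 and 2.0 ± 0.20 (spot error), or 6-fold, 5.99-fold and 3.99-fold. The other 2 Ndufaf4 probes, which were not well above background on 1 array each, had levels of -4.79 in the control and -1.64, -1.81 and -2.84 at the 3 doses for one, and of -5.24 and -2.52, -2.71 and -3.22 for the other, lowest in the control both times. Under the other scalings and normexp the difference of Ndufaf4 at 0.009% ranged between 0.82 (spike-in) and 2.02 (quantile), positive in each.

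Cycs encodes cytochrome c, the mobile electron carrier between complexes III and IV, which also starts apoptosis when it leaves the mitochondrion. Its level was 4.02 in the control and 5.28, 5.10 and 4.66 at the 3 doses. It was thus highest at the lowest dose and nearer the control with each further dose, with differences of 1.26 ± 0.20, 1.08 ± 0.20 and 0.65 ± 0.20, and the last of these was -0.53 with spike-in scaling. A second Cycs probe gave 1.31, 1.04 and 0.55, and the third gave 0.64, 0.51 and 0.20, the same order of doses at a smaller size. Processed copies of Cycs exist in the rat genome, and hybridisation may not separate them from the gene.

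The promoters of Ndufaf4 and Cycs, the pair of members with measured levels at least 2-fold above the control, are printed as the 250 bases before the start of transcription (RefSeq, GRCr8), with matches to the searched letters in capitals. The Ndufaf4 promoter lies at chr5:43401545-43401794, plus strand, and the Cycs promoter at chr4:80984768-80985017, minus strand. The capitals mark the NRF1 letters GCGCATGC, which in Ndufaf4 overlap in both orientations. In Cycs they are printed as the reverse complement, 157 bases before the start, and a pair of CCAAT boxes is also in capitals.
Ndufaf4: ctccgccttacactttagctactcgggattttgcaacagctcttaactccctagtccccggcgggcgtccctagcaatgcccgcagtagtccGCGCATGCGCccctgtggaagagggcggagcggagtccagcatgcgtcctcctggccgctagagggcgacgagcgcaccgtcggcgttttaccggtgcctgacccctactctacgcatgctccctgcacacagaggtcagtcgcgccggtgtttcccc
Cycs: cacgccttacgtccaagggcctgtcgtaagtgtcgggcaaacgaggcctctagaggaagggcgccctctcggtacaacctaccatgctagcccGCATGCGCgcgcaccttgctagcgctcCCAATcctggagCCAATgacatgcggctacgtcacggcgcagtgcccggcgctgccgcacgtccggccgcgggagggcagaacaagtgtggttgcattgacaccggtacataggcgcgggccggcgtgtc

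The remaining complex I assembly genes did not follow Ndufaf4. Ndufaf3, its partner, was at -0.45, -0.36 and -0.09 over the 3 doses, below the control also with quantile normalization and normexp. Ndufaf7, a methyltransferase needed for complex I assembly, had a level of 0.65 in the control and 0.79, 0.15 and -0.22 at the 3 doses. It was near the control at the lowest dose and lowest at the highest, where the difference was -0.88 ± 0.21, the furthest below the control of any member at 0.009%, and it stayed negative there with quantile normalization and normexp.

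**Figure D2:**
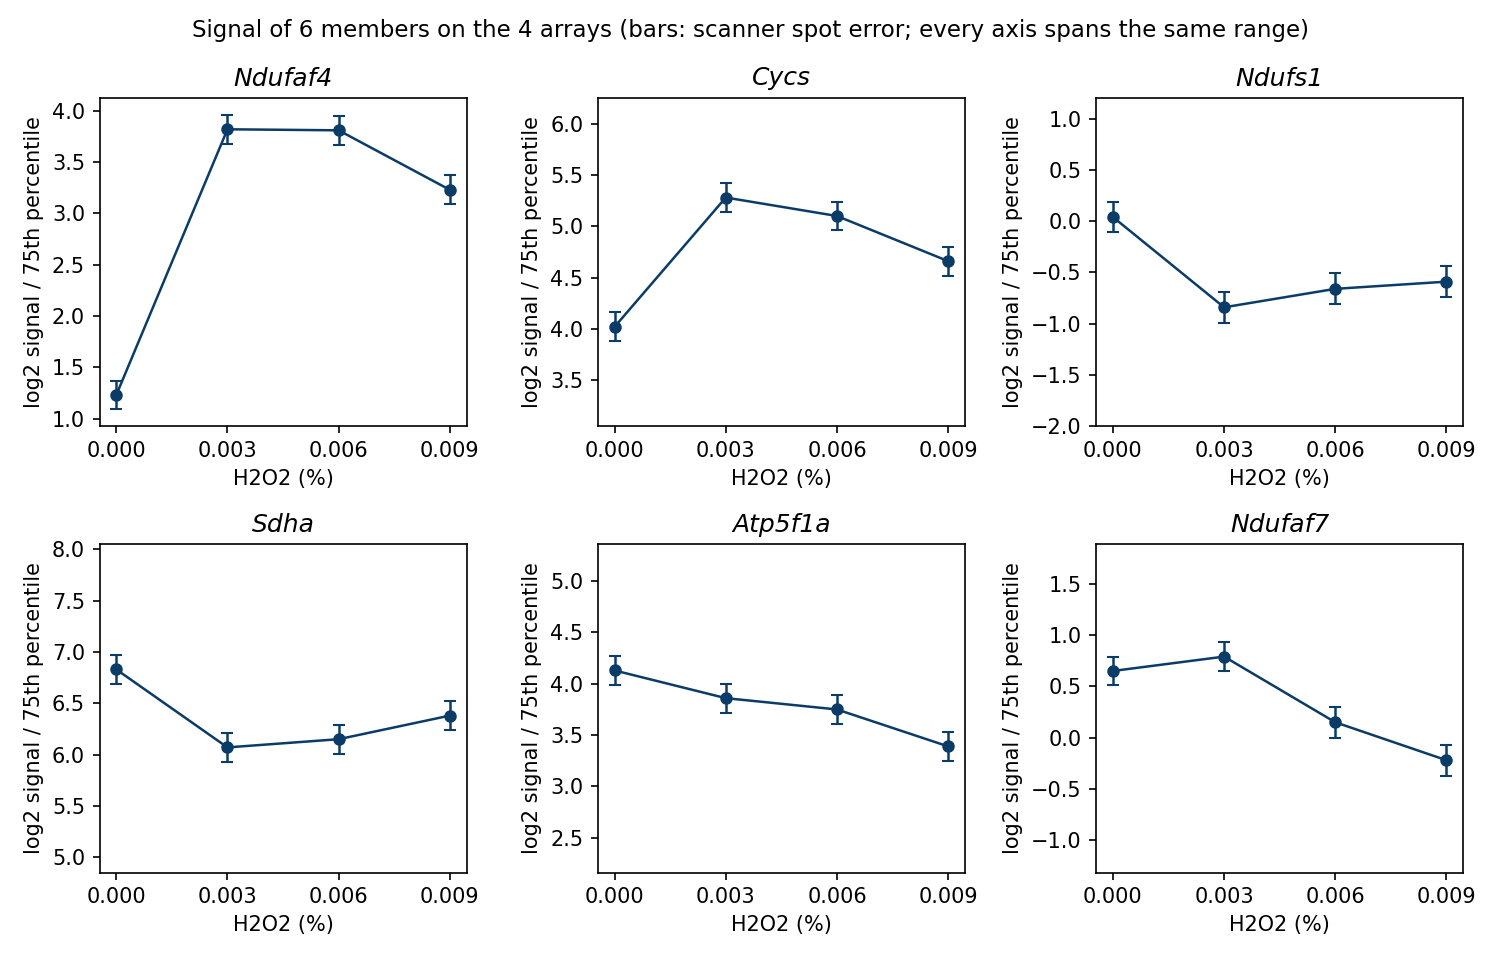
Level (log2 signal over the array's 75th percentile, y axis) of 6 members against the dose of H2O2 (x axis), 1 array per dose, with the scanner's spot error as bars. Every y axis spans the same range. Ndufaf4 and Cycs are above their control level at every dose, Ndufs1, Sdha and Atp5f1a below it, and Ndufaf7 below it at the 2 higher doses. With spike-in scaling Cycs lies below its control level at 0.009%, and Ndufaf7 at all 3 doses.

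Complex I subunits were lower as a group at the lower doses. The core subunits Ndufs1, Ndufv1, Ndufv2 and Ndufs7 lay between -0.88 and -0.30 at 0.003% and between -0.70 and -0.13 at 0.006%, and each was below the control at these 2 doses also with quantile normalization and normexp. Ndufs1, the large iron-sulfur subunit that receives electrons from the flavin site, had a level of 0.04 in the control and -0.84, -0.66 and -0.59 at the 3 doses. The 3 treated arrays were all below the control, at -0.88 ± 0.21, -0.70 ± 0.21 and -0.63 ± 0.21.

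Ndufv1, which binds the flavin and oxidises NADH, was at -0.69, -0.43 and -0.32, and its iron-sulfur partner Ndufv2 at -0.49, -0.41 and -0.04. The accessory subunit Ndufv3, which binds to this same end of the enzyme, was at -0.76, -0.64 and -0.23. Ndufs1, Ndufv1, Ndufv2 and Ndufv3 belong to the NADH-oxidising module, a grouping made after the values were seen. Ndufs7, which carries the last iron-sulfur cluster before ubiquinone, was at -0.30, -0.13 and 0.31, the last of which was -0.25 and -0.87 with array median and spike-in scaling.

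The 7 accessory subunits of complex I were mixed. Their median was -0.22, -0.25 and 0.11, the last turning negative under quantile (-0.09), array median, spike-in and normexp settings. In the membrane arm, Ndufa11 was at -0.71, -0.46 and -0.04 and Ndufb4 at -0.60, -0.26 and 0.11, the last turning negative under the 4 other settings. Ndufs5 stayed at -0.22, -0.25 and -0.09 and Ndufc2 at 0.12, 0.07 and 0.21, with a second Ndufc2 probe at 0.02, -0.13 and -0.16. Ndufa5, an accessory subunit beside the ubiquinone module, went the other way at 0.32, 0.38 and 0.61, its level being 6.28 in the control and 6.60, 6.66 and 6.89 at the 3 doses, and with spike-in scaling it was at -0.57 at 0.009%. Ndufa10l1, a copy similar to the subunit gene Ndufa10, was at -0.01, 0.06 and 0.30, the last at -0.26 and -0.87 with array median and spike-in scaling.

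Complex II, which joins the citric acid cycle to the respiratory chain, was measured through 3 of its genes. Sdha, the flavoprotein that oxidises succinate, had a level of 6.83 in the control and 6.07, 6.15 and 6.38 at the 3 doses. All treated arrays were below the control, at -0.76 ± 0.20, -0.69 ± 0.20 and -0.45 ± 0.20, and also with quantile normalization and normexp. The membrane anchors were nearer the control, with Sdhd at -0.21, -0.09 and 0.07 and Sdhc at 0.05, 0.15 and 0.42. At 0.009% both anchors were negative with array median and spike-in scaling, and Sdhd also with quantile normalization and normexp.

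The promoters of Ndufs1 and Sdha, the lowest member of each electron entry complex at 0.003%, are printed in the same way. That of Ndufs1 lies at chr9:72073606-72073855, minus strand, with an ETS match (CCGGAAG) printed as the reverse complement. That of Sdha lies at chr1:30764303-30764552, plus strand, with a CCAAT box, also printed as the reverse complement. Neither holds the NRF1 letters, which 8 of the 44 members with a promoter entry held. The printed promoters were picked by the values of their genes, so they do not compare responses.
Ndufs1: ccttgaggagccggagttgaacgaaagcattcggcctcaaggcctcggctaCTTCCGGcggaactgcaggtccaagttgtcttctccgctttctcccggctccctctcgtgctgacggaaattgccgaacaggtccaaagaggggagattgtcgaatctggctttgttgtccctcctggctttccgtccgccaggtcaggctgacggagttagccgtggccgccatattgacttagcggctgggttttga
Sdha: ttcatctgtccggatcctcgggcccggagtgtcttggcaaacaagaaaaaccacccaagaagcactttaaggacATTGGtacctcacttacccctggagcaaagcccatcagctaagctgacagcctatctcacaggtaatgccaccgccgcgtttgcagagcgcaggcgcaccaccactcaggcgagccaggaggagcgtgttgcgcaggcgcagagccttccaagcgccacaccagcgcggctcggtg

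Complex III showed no common direction. The core proteins Uqcrc1 and Uqcrc2 were at 0.08, -0.12 and -0.33 and at -0.44, -0.30 and -0.15, while Uqcrfs1, the Rieske iron-sulfur protein, was at 0.14, 0.07 and 0.22 and the hinge protein gene Uqcrh at 0.28, 0.26 and 0.41. At 0.009% both positive values turned negative with array median and spike-in scaling, Uqcrfs1 to -0.34 and -0.96 and Uqcrh to -0.15 and -0.77. Uqcrq, a small subunit of the membrane part, was dim, at -5.35 in the control, where it was not well above background, and at -4.03, -2.97 and -2.03 at the 3 doses. It was at least 2.24-fold higher at 0.006% and at least 4.3-fold higher at 0.009%, set against the lowest signal well above background in the control, and at 0.009% it was 4-fold above its own level at 0.003%.

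Complex IV genes lay together above the control at the highest dose with 75th percentile scaling. Their median was 0.13, 0.29 and 0.48 over the doses, and at 0.003% quantile, array median and spike-in scaling put it at -0.05, -0.02 and -0.06. Without Cox6b2, a bound whose direction the background filter fixes, the other 10 had a median of 0.12, 0.25 and 0.47. All 11 were above the control at 0.009% with 75th percentile scaling, Cox6b2 as a bound, where 57.9% of all features were above it and their median was 0.16. There array median scaling put the median of the 11 at -0.08 and spike-in scaling at -0.70, against -0.40 and -1.01 for all features. The 8 genes without the tissue isoforms Cox4i2, Cox6a2 and Cox6b2 had a median of 0.09, 0.17 and 0.42, and of -0.14 and -0.76 at 0.009% with the same 2 scalings. With normexp at 0.009% the 11 had a median of 0.28 and the 8 of 0.22, against 0.22 for all features. Quantile normalization put these medians at 0.23 and 0.10, against -0.04. Cox5a, a nuclear subunit at the matrix side, was at 0.36, 0.40 and 0.56, highest of these 8 at 0.006 and 0.009%, and Cox5b at -0.41, -0.08 and 0.17. Spike-in scaling put Cox5a at -0.61 and Cox5b at -1.01 at 0.009%, and quantile normalization and array median scaling also turned Cox5b negative.

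Several complex IV subunits exist as a common and a tissue form. Cox4i1, the common form of subunit IV, was at 0.05, 0.14 and 0.29, and Cox4i2, the form of lung and low oxygen, at 0.18, 0.32 and 0.48. Cox6a1, the liver form, was at 0.21, 0.35 and 0.50, and Cox6a2, the heart and muscle form, at 0.12, 0.29 and 0.59. Cox7a2, the liver form of its subunit, was at 0.43, 0.37 and 0.48 and Cox8a at 0.03, 0.14 and 0.30. Cox4i1 and Cox4i2, and likewise Cox6a1 and Cox6a2, thus lay within the median spot error of a difference (0.20) of each other at each dose. At 0.009% all 6 were negative with spike-in scaling, Cox6a2 at -0.59, all but Cox6a2 also with array median scaling, and Cox6a1 and Cox8a also with quantile normalization.

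The testis form Cox6b2 was dim, with levels of -5.93 in the control, not well above background, and -3.34, -2.55 and -2.10 at the 3 doses. The bounds of its excess over the control were at least 1.74-fold, 3-fold and 4.09-fold, and its spot error was large in the control, at 1.44.

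**Figure D3:**
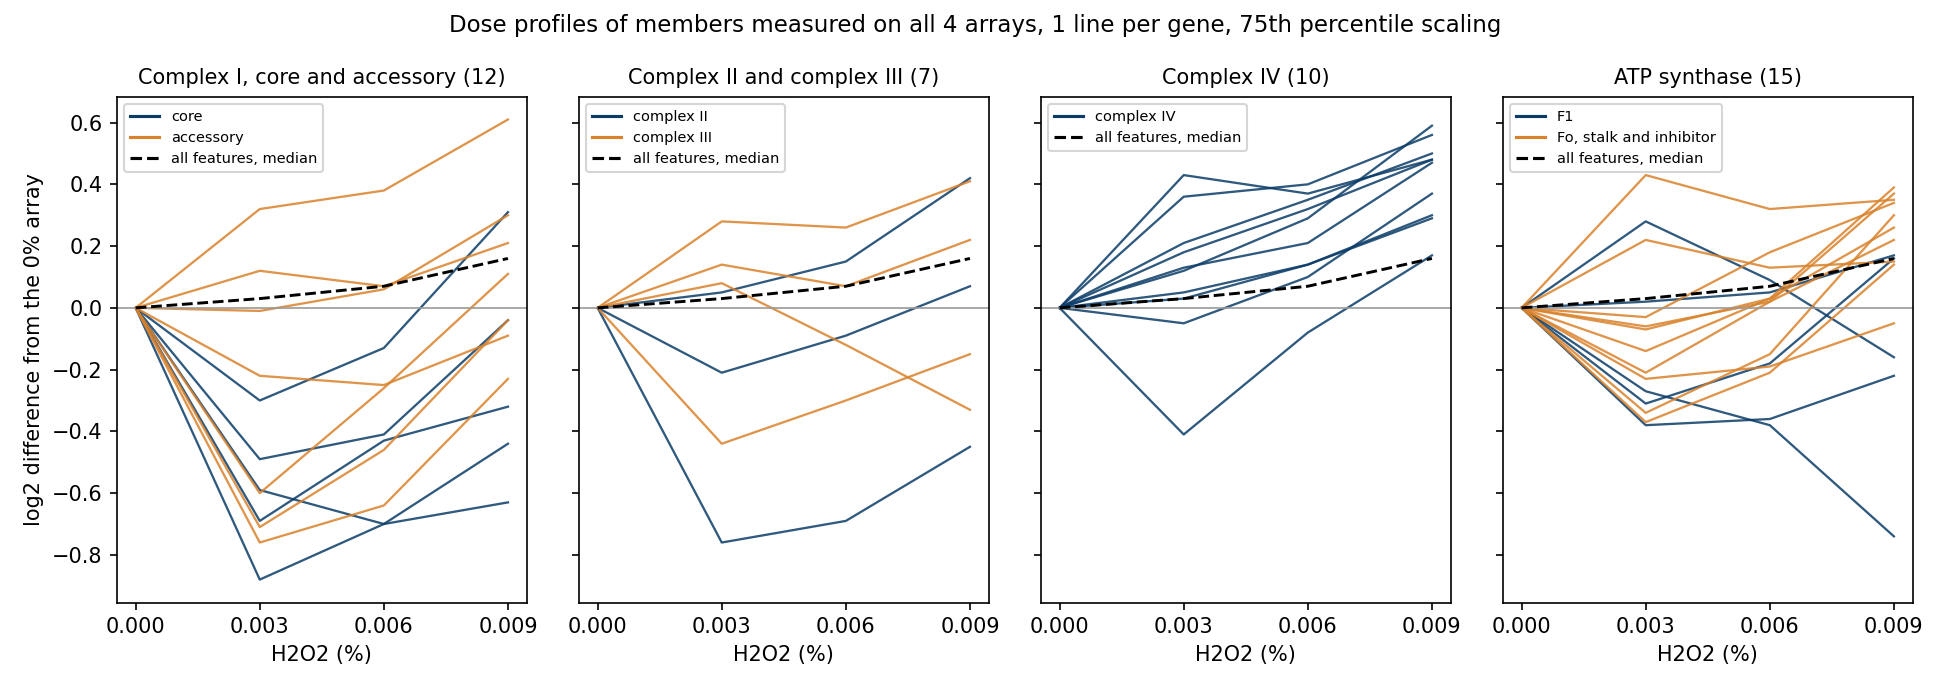
Log2 difference from the control array (y axis) against the dose of H2O2 (x axis), 1 line per member well above background on all 4 arrays, in complex I (12 core and accessory genes), complexes II and III (7), complex IV (10) and ATP synthase (15). The dashed line is the median of all features. Most complex I lines dip at 0.003%, complex IV lines lie above 0 at 0.009% with this scaling but mostly below it with array median and spike-in scaling, and Atp5f1a is the lowest ATP synthase line at 0.009%.

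The median of complex IV was above that of the complex I core and accessory genes by 0.67, 0.63 and 0.52 at the 3 doses. Array median and spike-in scaling cannot change this gap, which was 0.64, 0.63 and 0.49 with normexp and 0.62, 0.51 and 0.49 with quantile normalization. This pair of classes was picked after the values were seen, so the gap is a description. At 0.003% the medians behind it were 0.13 for the 11 complex IV genes and -0.54 for the 12 complex I genes. The 11 include Cox6b2, a bound, and the 10 without it had a median of 0.12.

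In ATP synthase, the median of the F1 part (head and central stalk) lay below that of the remaining subunits at the highest dose. The amount depended on the processing, and the ranges overlapped, at -0.74 to 0.17 for F1 and -0.05 to 0.39 for the others. The 5 F1 genes had a median of -0.27, -0.18 and -0.16, and the 9 genes of the membrane part (Fo) and peripheral stalk of -0.14, 0.03 and 0.30. Array median and spike-in scaling put the last of these at -0.26 and -0.87. Quantile normalization put F1 at -0.27 and Fo and stalk at -0.15 there, close to each other, and normexp put them at -0.29 and 0.15. Atp5f1a, the alpha subunit of the head, had a level of 4.13 in the control and 3.86, 3.75 and 3.39 at the 3 doses, lower at each step. Its differences were -0.27 ± 0.20, -0.38 ± 0.20 and -0.74 ± 0.20, and it was lower at every step of dose, alone among the members with the 75th percentile and quantile scaling but not with the others.

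The catalytic beta subunit gene Atp5f1b, with which Atp5f1a alternates in the head, was at 0.28, 0.09 and -0.16. The central stalk gene Atp5f1c (gamma) was at -0.38, -0.36 and -0.22 and Atp5f1e (epsilon) at -0.31, -0.18 and 0.16, the last negative under the 4 other settings, while Atp5f1d (delta) stayed between 0.02 and 0.17, all of which turned negative with array median and spike-in scaling.

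Among the other ATP synthase genes, Atp5mc2, one of the genes for the proton-carrying c ring, was at -0.07, 0.03 and 0.39, with a second probe at -0.16, 0.11 and 0.54. The stalk gene Atp5pd was at -0.21, 0.02 and 0.37, Atp5pf (coupling factor 6) at -0.23, -0.19 and -0.05, and Atp5po, which joins stalk and head, at -0.37, -0.21 and 0.14. At 0.009% Atp5mc2, Atp5pd and Atp5po were negative with array median and spike-in scaling, and Atp5mc2 and Atp5po also with quantile normalization. Atp5if1, which blocks ATP hydrolysis when the membrane potential is lost, was at -0.06, 0.02 and 0.22, the last 2 turning negative under the 4 other settings.

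Across the complexes, the genes below the control at all 3 doses with the 75th percentile, quantile normalization and normexp included Ndufs1, Ndufv1, Ndufv2, Ndufv3, Ndufa11, Ndufs5, Ndufaf3, Sdha, Uqcrc2, Atp5f1a, Atp5f1c and Atp5pf. Ndufaf4 was above it at all doses in all 5 settings.

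**Figure D4:**
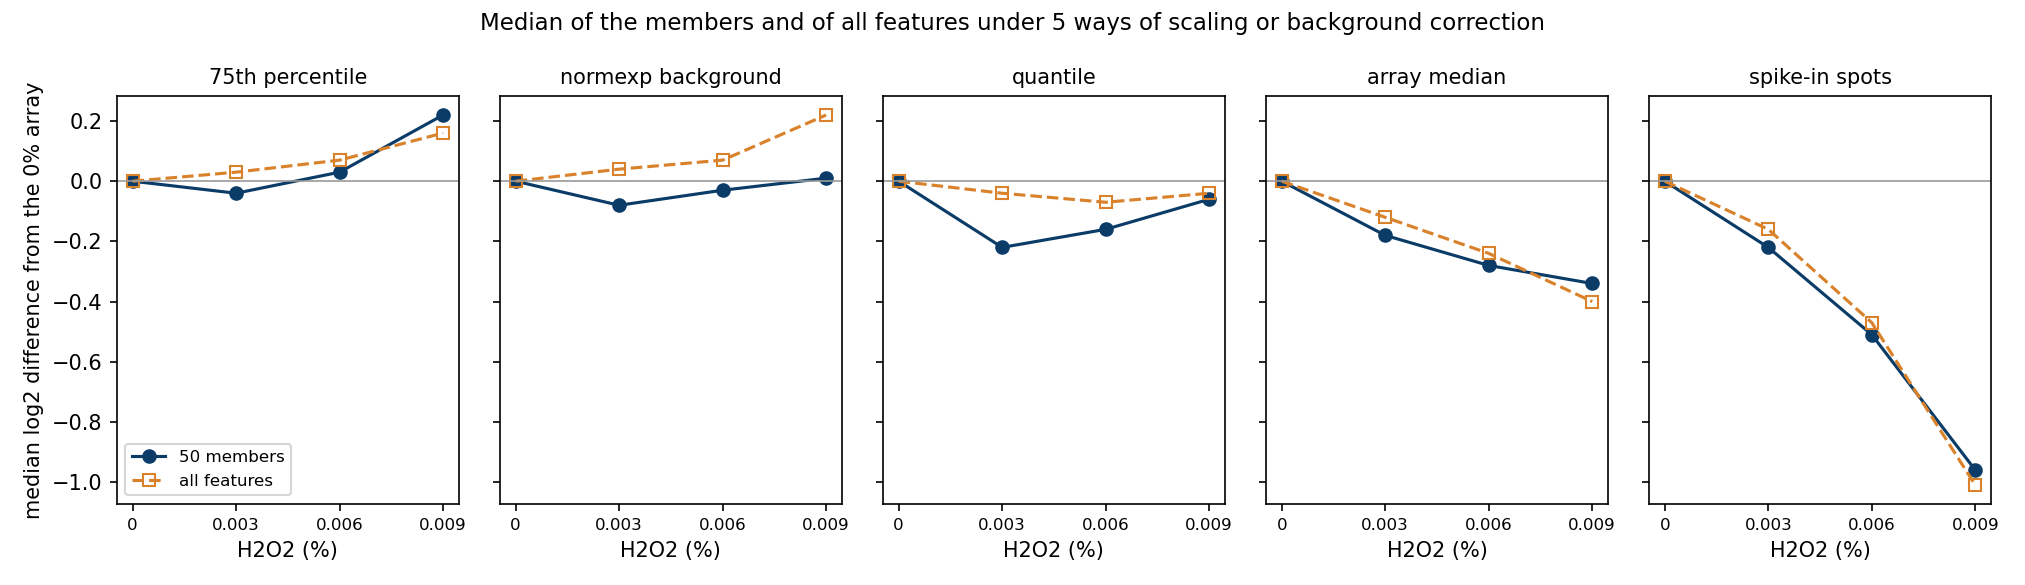
Median log2 difference from the control array (y axis) of the 50 members (filled) and of all features (open) against the dose of H2O2 (x axis) under 5 ways of scaling or background correction. The medians of members and of all features are furthest apart with normexp at 0.009% (0.01 against 0.22) and with quantile normalization at 0.003% (-0.22 against -0.04). At 0.009% the members' median is 0.22, 0.01, -0.06, -0.34 and -0.96 from left to right.

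Steady change with dose was seen in a minority of members with 75th percentile scaling and in most with spike-in scaling. Of the 48 members measured on all 4 arrays, 10 were higher at each step of dose, a share above the 13.1% of 17053 features. Lower at each step was 1 of the 48, a share below the 6.61% of features. Array median scaling put 16 of the 48 lower at each step and spike-in scaling 38, shares above the 21.2% and 41.5% of features. Normexp put 2 lower, a share below the 6.69% of features. The 10 were Cox4i1, Cox4i2, Cox5a, Cox6a1, Cox6a2, Cox6c, Cox8a, Atp5f1d, Ndufa5 and Sdhc, of which quantile normalization kept Cox4i2 and Cox6a2 and array median and spike-in scaling kept none. Quantile normalization thus put 2 of the 48 higher at each step, against 9.25% of features, and normexp 6, against 15.6%. Array median and spike-in scaling put 0, against 3.75% and 0.528%. The members' share was therefore above that of features with the 75th percentile alone, and below it in the other settings. A dip at 0.003% followed by a higher value at 0.009% was seen in 26 members (54.2%), against 36.6% of features, and a peak at 0.003% followed by a lower value at 0.009% in 7 (14.6%), against 32.5%. Quantile normalization gave the dip in 31 members, against 36.7% of features, and the peak in 9, against 33.3%. Normexp gave 26, against 35.8%, and 11, against 30.1%. Array median scaling gave 13 of the 48, a share near the 25.5% of features, and 11, against 37.3%. Spike-in scaling gave 0, against 7.17%, and 10, against 40.9%. The 7 with a peak were Ndufaf4, Cycs, Ndufaf7, Uqcrc1, Atp5f1b, Atp5mc1 and Atp5pb.

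Set directly against the lowest dose, the highest dose had a members' median of 0.29, against 0.18 for all features, and 42 of 50 members (84%) were higher at 0.009% than at 0.003%, against 59.2% of features. Array median scaling left 15 (30%), against 37.8%, and spike-in scaling 2 (4%), against 12.8%, so that the members' share lay below that of all features there. At least 1.5-fold higher were 6 members, against 29.7% of all features: Ndufs7, Ndufa11, Ndufb4, Uqcrq, Cox6b2 and Atp5me, the e subunit of ATP synthase. At least 1.5-fold lower were 3, Ndufaf4, Ndufaf7 and Cycs, against 15.4% of all features.

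A straight line over dose was fitted with limma on the 4 arrays, with 2 residual degrees of freedom. No member and no feature (0%) had a Benjamini-Hochberg adjusted p under 0.05, the smallest being 0.258. At an unadjusted p under 0.05, 2 members were higher with dose, against 11.1% of all features, and 0 lower, against 2.72%. These were Uqcrq and Cox6b2, both not well above background in the control and kept through the treated arrays where they are high, so their trend is a description. Ordinary least squares without variance moderation gave 8 higher and 1 lower at that level, against 2114 and 792 of 22352 features.

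Motifs of factors known to control nuclear OXPHOS genes were searched as exact letters on both strands of the members' promoters, 250 bases before to 50 after the start (RefSeq, GRCr8). The table held 44 of the 50 members, and those without an entry included Ndufa10l1, Cox4i2, Cox6a1, Cox6c and Atp5pd. The NRF1 letters GCGCATGC stood in 8 (18.2%), against 2.47% of 33469 promoters of all genes and 3.11% of 21851 of protein-coding genes. The ETS letters CCGGAAG, the core bound by the nuclear respiratory factor GABP, stood in 14 (31.8%), against 8.75% and 10.7%, and the YY1 letters AAGATGGC in 7 (15.9%), against 3.17% and 3.67%. The cyclic AMP response letters TGACGTCA were found in Cox8a alone (2.27%, against 1.83% and 2.1%), and CCAAT, the box bound by NF-Y, in 16 (36.4%, against 37.5% and 38%). None of these strings contains another, and a match is a description of the letters and not a site.

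The NRF1 letters did not go with one response. Besides Ndufaf4 and Cycs they stood in Ndufa11, Uqcrc1, Atp5mc2, Atp5me, Atp5mg and Atp5po, and these 6 were between -0.71 and 0.08 at 0.003% and between -0.33 and 0.39 at 0.009%. The 14 members with the ETS letters had a median of -0.17, -0.03 and 0.28 over the 3 doses, and the 7 with the YY1 letters of -0.23, -0.13 and 0.30. No NRF1, ETS, YY1 or cyclic AMP response match was present in 22 of the 44.

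**Figure D5:**
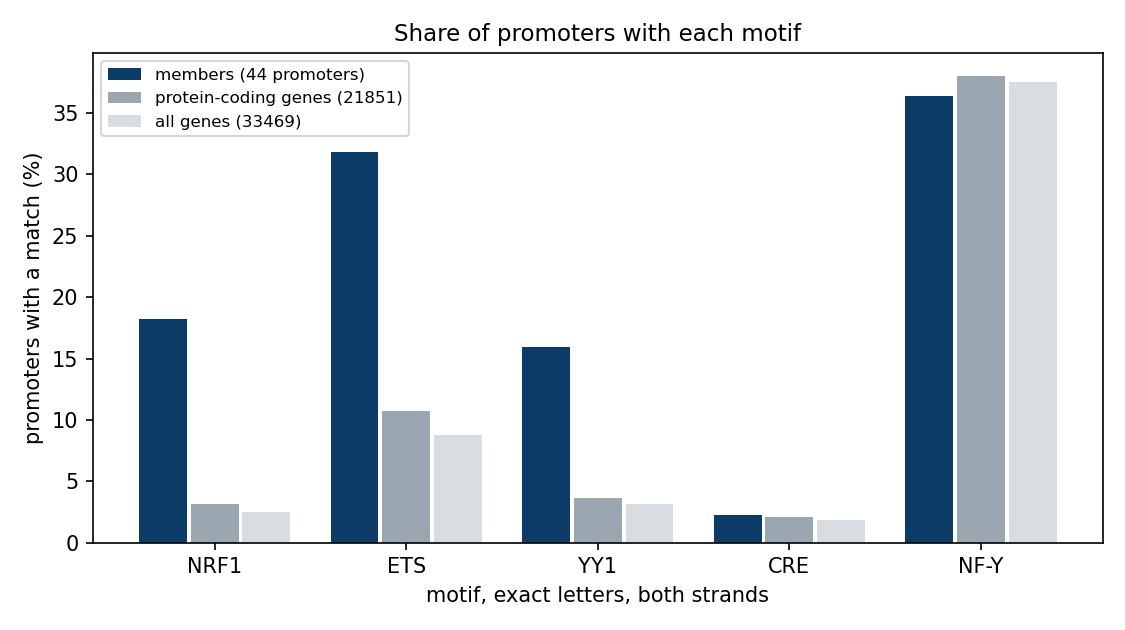
Share of promoters (y axis, percent) with at least 1 match to each of 5 motifs (x axis) among 44 members, protein-coding genes and all genes. The members' share is 18.2% for NRF1, 31.8% for ETS and 15.9% for YY1, against 3.11, 10.7 and 3.67% of protein-coding genes, while the NF-Y box (36.4%) is near the other groups.

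Other genes of the pathway were described from lists made for its neighbouring processes. In mitochondrial protein import, which brings the nuclear-encoded subunits into the organelle, the median of 18 compared genes was 0.93, 0.79 and 0.30 over the 3 doses, against 0.03, 0.07 and 0.16 over all features. As array median and spike-in scaling lower values at 0.009% by 0.56 and 1.17, they turn this and the other positive list medians at that dose negative. At 0.003%, 12 of the 18 were at least 1.5-fold higher and 1 lower, where 26.1% of all features were higher and 24.7% lower, the shares to set beside each list that follows. Timm10, a chaperone of the space between the membranes, was at 2.50, 2.41 and 1.76, and Hspe1, the matrix co-chaperonin, at 1.18, 1.58 and 1.92. Both were positive under each scaling and normexp.

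Regulators of mitochondrial DNA expression and biogenesis had a median of 0.63, 0.16 and 0.18 over 11 genes, with 6 at least 1.5-fold higher and 0 lower at 0.003%. Of all features 26.1% were higher and 24.7% lower at this dose and size. Gabpb1, the partner subunit of GABP, was at 1.72, 2.06 and 1.53, the mitochondrial transcription factor gene Tfb2m at 2.08, 1.99 and 1.45, and Tfam, which packages mitochondrial DNA, at 1.15, 1.15 and 0.74. Of these 3, spike-in scaling turned Tfam negative at 0.009%, to -0.43. Ppargc1a, a coactivator of mitochondrial biogenesis, was below background on all 4 arrays, and Nrf1 was not analysed here. Coenzyme Q synthesis and other electron donors had a median of -0.35, -0.29 and -0.20 over 14 genes, with 0 higher and 6 lower by 1.5-fold at 0.003%. Coq8a, needed for coenzyme Q synthesis, was at -1.95, -1.27 and -0.71, and Dhodh, which feeds electrons from pyrimidine synthesis to ubiquinone, at 0.30, -0.14 and -0.79.

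In the citric acid cycle and pyruvate dehydrogenase, the median of 14 genes was 0.35, 0.12 and -0.02. By 1.5-fold at 0.003%, 4 were higher and 2 lower, against 26.1 and 24.7% of all features. Ogdh, the E1 subunit of the 2-oxoglutarate dehydrogenase complex, was at 2.20, 1.73 and 1.03, the last -0.15 with spike-in scaling. The 24 mitochondrial ribosomal protein genes had a median of -0.03, -0.08 and 0.16, with 6 higher and 2 lower by 1.5-fold at 0.003%. The share higher is near the 26.1% of all features, and the share lower is below their 24.7%. Mrpl40 was at 0.57, 0.56 and 0.90, the last at -0.28 with spike-in scaling, and Mrpl41 at -0.33, -0.74 and -0.67.

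Of the genes that exchange adenine nucleotides or uncouple, 8 or 9 could be compared at each dose, with medians of 0.02, 0.11 and 0.27. Slc25a4, the heart and muscle form of the ADP/ATP carrier, was at -0.22, -0.22 and -0.04, and Slc25a5, the form of dividing cells, at 0.90, 0.72 and 0.27, the last at -0.29 and -0.90 with array median and spike-in scaling. Vdac1, the outer membrane channel, was at -0.08, 0.08 and 0.85 and the uncoupling protein homologue Slc25a27 at -0.10, 0.13 and 0.56, at -0.32 and -0.61 with spike-in scaling at 0.009%. Ucp2 was well above background at 0.009% but not in the control, and was at least 2.7-fold higher there.

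Mitochondrial quality control genes had a median of 0.13, 0.02 and -0.18 over 10 genes. By 1.5-fold at 0.003%, 2 were higher and 3 lower, against 26.1 and 24.7% of all features. The mitophagy receptor genes Bnip3 and Bnip3l were at -0.61, -1.05 and -1.25 and at -0.94, -0.79 and -0.63. The 7 assembly factors of respiratory complexes outside the naming rule had a median of -0.27, -0.25 and 0.15, with 1 higher and 2 lower by 1.5-fold at 0.003%. Cox17, the copper chaperone of complex IV, was at 0.49, 0.50 and 0.47, the last at -0.09 and -0.71 with array median and spike-in scaling, and Sdhaf2, which adds the flavin to Sdha, was at -0.83, -1.02 and -0.48.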

How the data were processed

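RNA of 4 cultures was measured on 1-colour (Cy3) Agilent arrays, 1 per dose. Per the file headers, the authors' Feature Extraction 10.7.3.1 gave each spot a linear intensity, background-subtracted, with an error in the same intensity unit and without scaling across arrays. Values of the deposited table are a linear ratio of a probe's mean signal to the array median, equal in 100% of probes within 1e-06 (column medians 0.962, 0.955, 0.965 and 0.972). Well above background is the scanner software's flag, taken from the majority of a probe's spots (per the file headers). Slide position, dose and scan could not be separated.

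Spots marked as outliers were left out, log2 signals of a probe were averaged, and the array's log2 75th percentile was subtracted. In all, 41007 of 41012 probes were used, and 10834 probes (8963 genes) were named through RefSeq accessions (GRCr8, names and promoters only). A gene took its brightest probe (44 members had 1 probe, 6 had several). A side not well above background took the array's lowest signal well above background, or its own value where that was higher, giving a bound. Trends used limma 3.58.1 in R 4.3.3, other steps Python 3.11.15, and the trend fit was tested on simulated data. Alternatives were quantile, array median and 7-probe spike-in scaling, normexp (offset 50, on median spot and background signals, as the mean signal was not used here), the deposited ratio, the filters on dim probes, the mean of probes and ordinary least squares.

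The members, lists and naming rule were chosen with earlier results of these data known. Named were, per class, the 2 highest and 2 lowest members at 0.009%, every member at least 2-fold from the control, a fixed set of central genes, and in each other list the 2 largest differences at 0.009% and 6 fixed genes. Some genes that this rule names are not reported here singly, but are counted in the totals and medians. Counts of 1.5-fold and 2-fold are rules of size and not tests; with so few arrays the precision is limited.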

Additional observations from a re-analysis of the deposited data

How the results depend on the processing

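The cause of each change below was not tested, except that a scaling moves every feature of an array by 1 amount. Without replicates no paired analysis was possible because each dose had 1 array. Array median scaling and the deposited ratio put the members' median at -0.28 (0.006%), -0.34 (0.009%) and -0.13 (0.009% against 0.003%). Both left 3 members 1.5-fold higher at 0.009% and 2 members 2-fold higher at 0.006%, counted 12 and 16 members 1.5-fold lower at 0.006 and 0.009%, and 1, 2 and 5 members 2-fold lower at the 3 doses. The median of all features was -0.12, -0.24 and -0.40 at the 3 doses with both. With array median scaling 0 members were higher and 16 lower at every step, where 21.2% of features were lower. There 2 members were lower with dose at an unadjusted limma p under 0.05, against 2619 of 22352 features. Spike-in scaling put the medians at -0.51, -0.96 and -0.70, with 11, 22 and 45 members 1.5-fold lower, 1, 6 and 23 members 2-fold lower, 3 members 1.5-fold higher at 0.009%, and 2 and 0 members 2-fold higher at 0.006 and 0.009%. With it the median of all features was -0.16, -0.47 and -1.01 at the 3 doses. It put 0 members higher and 38 lower at every step, where 41.5% of features were lower. With dose, 16 members were lower, against 7335 of 22352 features at the same unadjusted limma p. It turned Cycs (-0.53), Ndufa5 (-0.57) and Cox6a2 (-0.59) at 0.009%. Quantile normalization gave a median of -0.06 at 0.009%, 3 members 1.5-fold higher there and 1 member 2-fold lower at 0.003%. It put 2 members higher at every step, where 9.25% of features were. Normexp gave a median of 0.01 at 0.009%, 2 and 3 members 1.5-fold higher and 2 and 1 members 2-fold higher at 0.006 and 0.009%. It gave 6 members higher at every step, against 15.6% of features, and 2 lower, against 6.69%. With dose 2 members were lower, against 958 of 22352 features. With every probe kept, 5 members were 1.5-fold higher and 5 were 2-fold higher at 0.003%, and 5 were 2-fold higher at 0.009%. Requiring signal well above background on both arrays left 2 members 1.5-fold and 2-fold higher at 0.006% and 1 member 2-fold higher at 0.009%. Ordinary least squares called 8 members higher and 1 lower with dose, against 2114 and 792 of 22352 features. Averaging a gene's probes moved none of these counts by over 1.5 times.

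Dim signal limits Uqcrq and Cox6b2, which have no measured control level.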
